A study of Mus musculus with 11 samples.

Results

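Levels of 9 genes that encode transcription factors of the upper face were examined in the facial processes of wild-type (wt), *Wnt9b*KO, *Rspo2*KO and DKO mouse embryos at embryonic day 10.5. The genes are *Alx1*, *Alx4*, *Pax3*, *Pax7*, *Pax9*, *Tfap2a*, *Tfap2b*, *Tfap2c* and *Six2*. They were chosen by name as factors of frontonasal and maxillary mesenchyme, and their symbols were matched to the Ensembl identifiers of the count files, which hold 38561 genes. Facial process explants, made up of the mandibular and maxillary arch and the nasal processes, came from mice of mixed strain. Of the 11 libraries, 2 are labelled wt, 3 are labelled homozygous mutant for *Rspo2* (Rspo2KO), 3 homozygous mutant for *Wnt9b* (Wnt9bKO) and 3 homozygous mutant for both genes (DKO). The study asked what is lost when the WNT ligand WNT9b and its enhancer RSPO2 are removed singly and together. The alleles carried by the sequenced embryos, the number of embryos per library and their sex are not given in the sources used here. Whether libraries came from separate litters is not stated either, so p-values measure the spread between these samples.

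The face forms from frontonasal, maxillary and mandibular processes, which are filled with neural crest mesenchyme and covered by ectoderm. ALX proteins are paired-type homeodomain factors of frontonasal crest mesenchyme, and loss of *ALX1* or *ALX4* in humans causes frontonasal dysplasia. PAX proteins bind DNA through a paired domain. PAX3 and PAX7 act in neural crest and in the nasal region, and PAX9 acts in pharyngeal pouches, palate and tooth mesenchyme. TFAP2 (AP-2) proteins bind GC-rich palindromes as dimers in surface ectoderm and neural crest. SIX2 is a homeodomain factor of craniofacial mesenchyme and of kidney progenitors. WNT signaling through β-catenin acts in both the ectoderm and the mesenchyme of these processes.

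Total counts were between 11136166 and 18017344 per library. *Rspo2*, the gene mutated in Rspo2KO and DKO, was at 14.8 and 16.0 counts per 1000000 (CPM) in wt, and Rspo2KO libraries had 4.73 to 6.58 CPM. The library labelled Wnt9bKO 2 had only 2.86 CPM, against 22.8 and 18.1 CPM in the other libraries of that label. The library labelled DKO 3 had 15.5 CPM, against 4.17 and 3.67 CPM in the other libraries labelled DKO. *Rspo2* thus went against the label in these 2 libraries. For the 9 factors, results that rest on them are given with and without them. Calls of all other genes named below were not checked without them. *Wnt9b* was at 10.8 and 13.4 CPM in wt. The 6 libraries labelled Wnt9bKO or DKO had 16.2 to 23.3 CPM, so its level was not lowered in any of them and gives no check of the *Wnt9b* label. All genotype names below are the labels of the libraries. *Xist*, which marks cells with 2 X chromosomes, was high in all wt and DKO libraries and near 0 in all libraries labelled Wnt9bKO or Rspo2KO, so sex and genotype label cannot be told apart in 4 of the 6 pairs of genotypes. Summed small nuclear RNAs were at 351.6 to 419.2 CPM in wt and Rspo2KO and at 70.1 to 82.7 CPM in Wnt9bKO and DKO. Summed markers of erythroid cells were at 3942 to 5758 CPM and 1741 to 2847 CPM in the same groups of libraries. Markers of crest mesenchyme and surface ectoderm were present in all libraries. The first summed to 519 to 1064 CPM over 6 genes and the second to 216 to 259 CPM over 9 genes. Heart markers summed to 60.6 CPM in wt 1 and to 8.63 CPM in wt 2, and to 3.28 to 10.4 CPM in the mutants. The part of other tissue in wt 1 in the comparisons with wt was not tested.

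All 9 factors passed the filter on low counts, with 83 to 4116 counts in a library. Per kb of exon, the order of their levels in wt ran from *Alx4* (24.7 CPM per kb) through *Six2* (18.0), *Alx1* (9.31), *Tfap2b* (7.02), *Tfap2c* (3.71), *Pax3* (3.22), *Pax7* (2.50) and *Pax9* (2.05) to *Tfap2a* (1.61). *Alx4* lay at the 89.1th percentile of all genes tested and *Tfap2a* at the 35.1th, on the same scale. The 2 wt libraries gave 2.38 and 4.06 CPM per kb for *Pax3*, a range that took in both values of its neighbours *Tfap2c* and *Pax7*. The values of every other pair of neighbours in this order did not overlap. In a sample of mixed tissue, fewer cells of a type and less RNA per cell cannot be told apart.

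**Figure D1:**
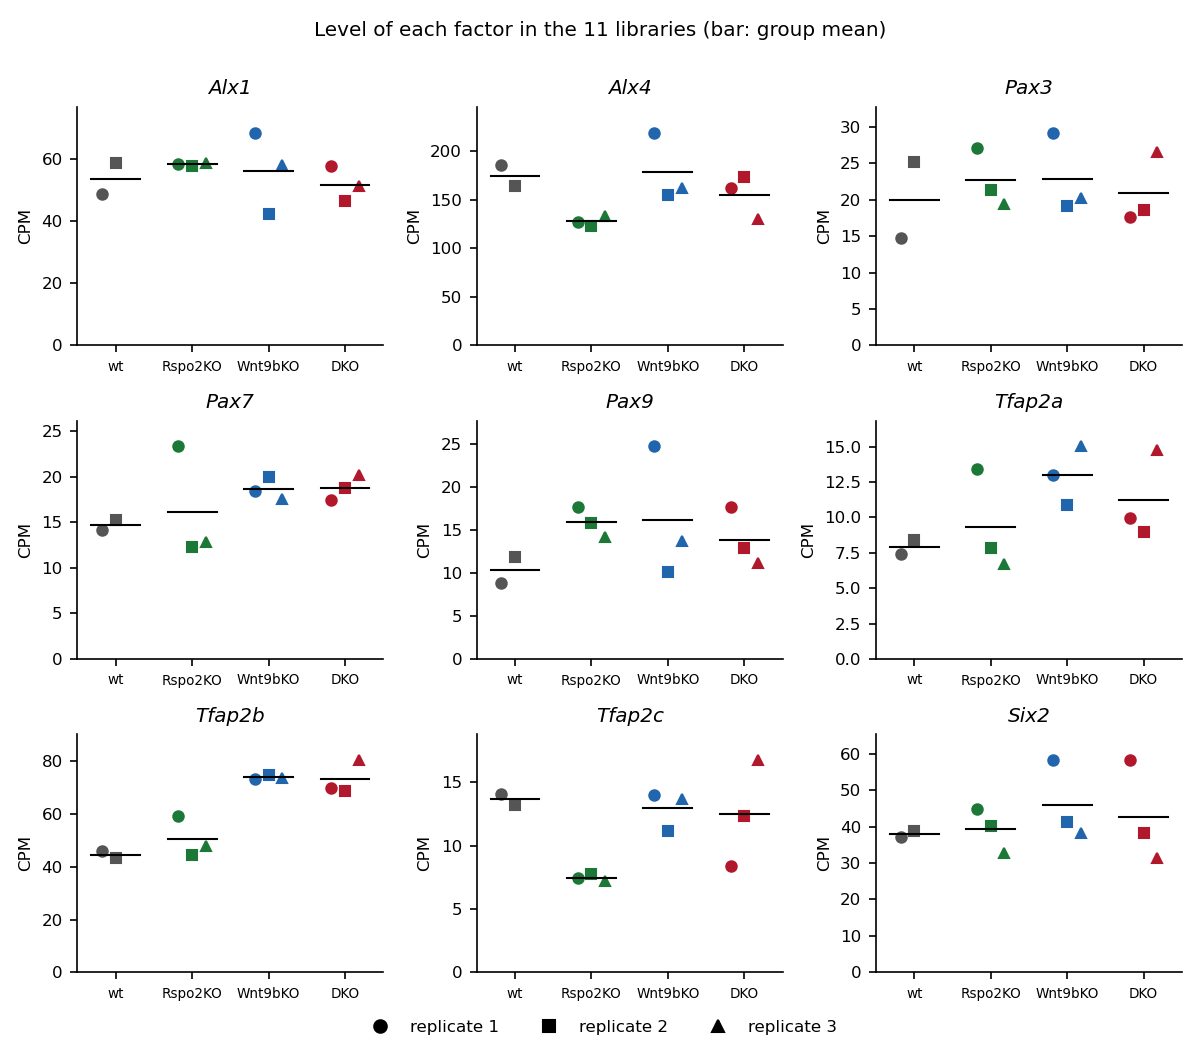
CPM of each factor (y axis, linear and from 0) in the 11 libraries, grouped by genotype label on the x axis, with replicate number by symbol and the group mean as a bar. The 6 *Tfap2b* values of Wnt9bKO and DKO lie between 68.7 and 80.5 CPM, above all 5 values of wt and Rspo2KO, and the 3 *Tfap2c* values of Rspo2KO lie between 7.19 and 7.76 CPM, below all other libraries.

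The genotypes differed most clearly in 3 of the 9 genes, *Tfap2b*, *Tfap2c* and *Alx4*. *Tfap2b* was higher in Wnt9bKO and in DKO than in wt. *Tfap2c* and *Alx4* had their lowest group means in Rspo2KO. Against Rspo2KO, *Tfap2c* passed the test in Wnt9bKO and in DKO, and *Alx4* in Wnt9bKO only. The call of *Tfap2c* in DKO was lost without the library DKO 3. A gene was called at an adjusted p below 0.05 by edgeR's quasi-likelihood test, with p adjusted over all 17317 genes tested. Between Wnt9bKO and wt 1 of the 9 genes was called, where 32.8% of all genes were called, and between DKO and wt again 1, where 27.5% were called. Of the 9, 2 were called between DKO and Rspo2KO (18.2% of all genes) and 3 between Wnt9bKO and Rspo2KO (26.0% of all genes). Between Rspo2KO and wt 0 of the 9 were called by edgeR (0.0346% of all genes). There 2 had an unadjusted p below 0.05 (11.9% of all genes) and 1 was called by DESeq2 (1.44% of all genes with an adjusted p). Between DKO and Wnt9bKO 0 were called by edgeR (0.121% of all genes), and likewise 0 had an unadjusted p below 0.05 (5.63%) and 0 were called by DESeq2 (0.409%). By edgeR's adjusted p, the shares called among the 9 were below those among all genes in Wnt9bKO and in DKO against wt. In Rspo2KO against wt too few of all genes were called for 0 of 9 to tell anything. The counts there by unadjusted p and by DESeq2 lay above the shares of all genes. With only 9 genes, none of these counts is read as a trait of the set. The median log2 fold change over the 9 genes was 0.27 in Wnt9bKO, 0.13 in Rspo2KO and 0.17 in DKO against wt, beside 0.01, 0.00 and 0.01 over all genes.

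**Figure D2:**
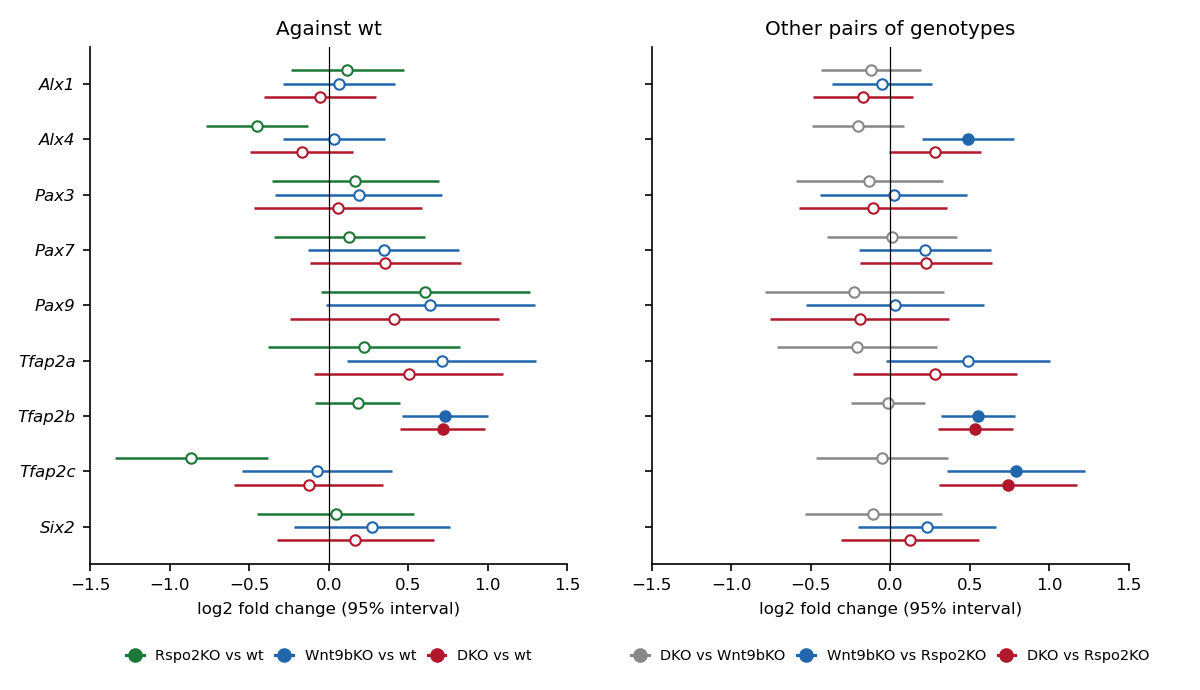
Log2 fold change of each factor (x axis) with its 95% interval from edgeR, for each genotype against wt (left) and for the other pairs of genotypes (right). Filled points passed an adjusted p of 0.05, which was the case for *Tfap2b* in 4 comparisons, *Tfap2c* in 2 and *Alx4* in 1.

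*Tfap2b* (ENSMUSG00000025927, chr1:19208914-19238576, plus strand, GRCm38) encodes AP-2β, a factor of cranial crest and branchial arches. It was at 45.8 and 43.2 CPM in wt and at 59.1, 44.6 and 47.8 CPM in Rspo2KO. In Wnt9bKO it was at 73.3, 74.7 and 73.6 CPM, and in DKO at 69.9, 68.7 and 80.5 CPM. Every library of Wnt9bKO and DKO was above every library of wt and Rspo2KO. Such separation was common among all genes. Taken pair by pair, 56.3% of them separated Wnt9bKO from wt and 58.1% DKO from wt. Against Rspo2KO the shares were 37.6% for Wnt9bKO and 36.5% for DKO. *Tfap2b* rose by a log2 fold change of 0.73 in Wnt9bKO against wt (SE 0.13, 1.66-fold, adjusted p = 0.000694). It rose by 0.72 in DKO against wt (SE 0.13, 1.64-fold, adjusted p = 0.00105). Both comparisons share the 2 wt libraries. Against Rspo2KO it was also higher, by 0.55 in Wnt9bKO (SE 0.11, adjusted p = 0.00241) and by 0.53 in DKO (SE 0.11, adjusted p = 0.00406). The difference between DKO and Wnt9bKO was -0.02, with a 95% interval of -0.25 to 0.22, and that between Rspo2KO and wt was 0.18, with an interval of -0.09 to 0.45. The 4 calls held under all 22 alternatives, in which the change between Wnt9bKO and wt ran from 0.56 to 0.77. The level of *Tfap2b* followed the *Wnt9b* label, and it also followed the summed small nuclear RNAs and erythroid markers, which split the libraries in the same way and cannot be told apart from that label.

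The promoter of *Tfap2b* is shown because this gene differed most firmly between genotypes, and that of *Six2* because it alone of the promoters at hand held a searched motif. The RefSeq table gave 6 promoters of 300 bases for 5 of the 9 genes, *Tfap2b*, *Pax7*, *Pax9*, *Tfap2a* (2 start sites) and *Six2*. Each holds 250 bases before the start site and 50 after it. The promoter of *Tfap2b* lies at chr1:19211804-19212103 on the plus strand and that of *Six2* at chr17:85688205-85688504 on the minus strand (GRCm38.p6). That of *Tfap2b* surrounds a start site inside the annotated gene, which begins at chr1:19208914, and sequence around that end was not searched. Capitals mark TAAT and ATTA separated by any 3 bases, the palindrome bound by dimers of paired-type homeodomains.
Tfap2b: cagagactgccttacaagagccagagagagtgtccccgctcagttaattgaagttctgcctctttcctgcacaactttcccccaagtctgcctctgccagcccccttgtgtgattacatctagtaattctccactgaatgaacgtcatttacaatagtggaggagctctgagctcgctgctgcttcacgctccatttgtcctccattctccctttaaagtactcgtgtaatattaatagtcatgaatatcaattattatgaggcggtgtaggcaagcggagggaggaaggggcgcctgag
Six2: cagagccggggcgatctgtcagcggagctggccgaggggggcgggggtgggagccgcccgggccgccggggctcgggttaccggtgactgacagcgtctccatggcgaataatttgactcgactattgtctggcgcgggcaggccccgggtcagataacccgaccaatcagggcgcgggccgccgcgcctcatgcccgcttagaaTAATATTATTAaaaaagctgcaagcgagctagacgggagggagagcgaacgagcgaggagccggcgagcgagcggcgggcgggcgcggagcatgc
The *Six2* promoter is rich in G and C, with 67.3% GC and 37 CpG, while that of *Tfap2b* has 48.3% GC and 8 CpG. The medians over all 32851 promoters were 52.7% GC and 7 CpG. The match in *Six2* starts at position -45 relative to the start site, and 0.487% of all promoters hold this motif on either strand. GCCNNNGGC, the palindrome bound by AP-2 dimers, is in 16.6% of all promoters and in 0 of the 6 promoters of these genes. CTTTGAT, a site of the WNT effectors TCF and LEF, is in 3.73% of all promoters and likewise in 0 of the 6. Both strands were searched, no searched motifs overlapped, and a match describes letters and not binding.

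*Tfap2c* (ENSMUSG00000028640, chr2:172549593-172558622, plus strand) encodes AP-2γ, a factor of early surface ectoderm and trophoblast. It was at 14.1 and 13.2 CPM in wt and at 7.48, 7.76 and 7.19 CPM in Rspo2KO. In Wnt9bKO it was at 14.0, 11.1 and 13.7 CPM, and in DKO at 8.39, 12.3 and 16.8 CPM. All Rspo2KO libraries were below all others, while the DKO libraries spread from near the Rspo2KO level to above wt. Against Rspo2KO, *Tfap2c* was higher by 0.79 on the log2 scale in Wnt9bKO (SE 0.20, 1.73-fold, adjusted p = 0.0108). It was higher by 0.74 in DKO (SE 0.20, 1.67-fold, adjusted p = 0.0209). Against wt, the change in Rspo2KO was -0.87 (SE 0.22, 95% interval -1.35 to -0.39, unadjusted p = 0.00166), which did not pass adjustment over all genes (adjusted p = 0.216). Only 3.90% of all genes differed by more on the log2 scale in that comparison. With DESeq2 the same change gave an adjusted p of 0.0332. The change was -0.07 in Wnt9bKO against wt, with an interval of -0.54 to 0.39, and -0.13 in DKO, with an interval of -0.60 to 0.34. Between DKO and Wnt9bKO it was -0.05, with an interval of -0.47 to 0.36.

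The 2 libraries whose *Rspo2* level went against their label bear on *Tfap2c*. Read by library, the 6 lowest *Tfap2c* levels, 7.19 to 12.3 CPM, were those of Rspo2KO 1, 2 and 3, Wnt9bKO 2, DKO 1 and DKO 2. These are the 6 libraries with *Rspo2* at 2.86 to 6.58 CPM. The 5 others had *Tfap2c* at 13.2 to 16.8 CPM and *Rspo2* at 14.8 to 22.8 CPM. DKO 3 had the highest *Tfap2c* level of all, 16.8 CPM. How many of all genes split the libraries in this way was not counted, and a link between *Tfap2c* and *Rspo2* was not tested. Without DKO 3, the difference between DKO and Rspo2KO was 0.47 (adjusted p = 0.0984), and without DKO 3 and Wnt9bKO 2 it was again 0.47 (adjusted p = 0.0774). The call was also lost without Rspo2KO 2 (adjusted p = 0.0615), without Rspo2KO 3 (adjusted p = 0.0814) and without DKO 2 (adjusted p = 0.0545). The call between Wnt9bKO and Rspo2KO held under all 22 alternatives, with adjusted p-values of 0.000143 to 0.0476. Summed markers of surface ectoderm, where *Tfap2c* is also expressed, were at 221 to 259 CPM in Rspo2KO and at 233 to 250 CPM in wt.

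**Figure D3:**
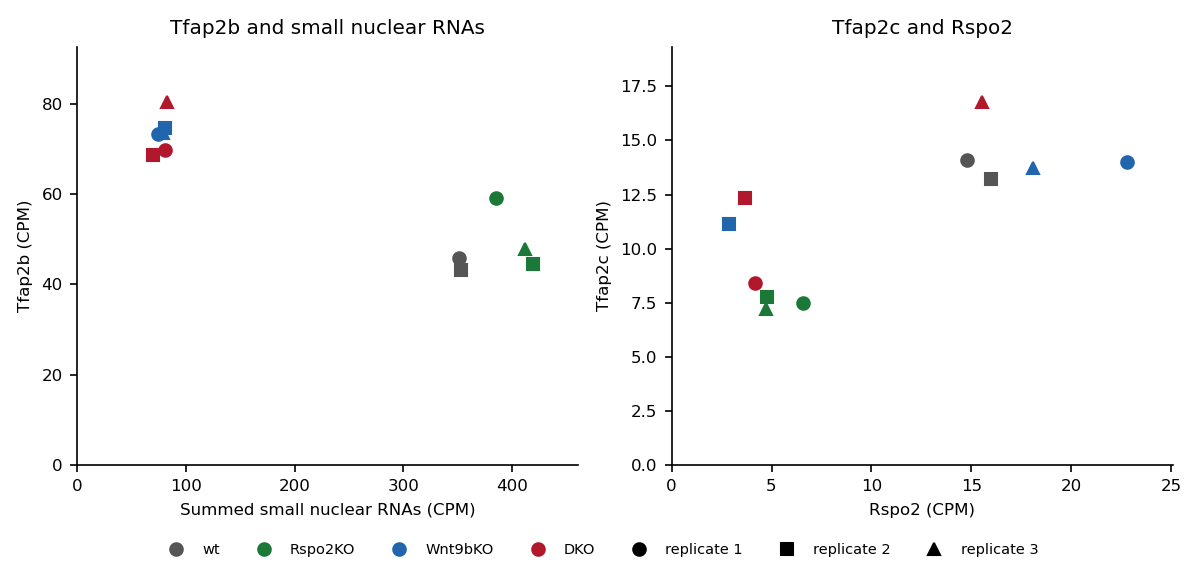
Level of *Tfap2b* against summed small nuclear RNAs (left) and of *Tfap2c* against *Rspo2* (right), all in CPM on linear axes, with 1 point per library, genotype label by color and replicate by symbol. The 6 libraries with small nuclear RNAs below 83 CPM are those with *Tfap2b* above 68 CPM, and the 6 libraries with *Rspo2* below 7 CPM are those with *Tfap2c* below 13 CPM. Neither relation was tested.

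*Tfap2a* (ENSMUSG00000021359, chr13:40715302-40738376, minus strand) encodes AP-2α, which is required for closure of the face and cranial neural tube. Its levels were 7.41 and 8.39 CPM in wt and 13.4, 7.82 and 6.69 CPM in Rspo2KO. They were 13.0, 10.9 and 15.0 CPM in Wnt9bKO and 9.97, 8.96 and 14.7 CPM in DKO. All libraries of Wnt9bKO and DKO were above both wt libraries, while those of Rspo2KO lay on either side. The change against wt was 0.71 in Wnt9bKO (SE 0.28, adjusted p = 0.0635), 0.50 in DKO (SE 0.28, adjusted p = 0.200) and 0.22 in Rspo2KO (SE 0.28, adjusted p = 0.794). The change in Wnt9bKO passed the threshold in 7 of the 22 alternatives, with DESeq2 (adjusted p = 0.0423) among them. It was 0.85 without Wnt9bKO 2 (adjusted p = 0.0474) and 0.82 without both doubtful libraries (adjusted p = 0.0331). Against Rspo2KO, the difference was 0.49 in Wnt9bKO (SE 0.24, adjusted p = 0.150) and 0.28 in DKO (SE 0.24, adjusted p = 0.468). Without Rspo2KO 1, which had the highest level of its genotype, the first was 0.84 (adjusted p = 0.0119). Exons of *Tfap2a* share 380 bases with those of Gm26688, a counted antisense gene, and without a stated strand their reads cannot be told apart.

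*Alx4* (ENSMUSG00000040310, chr2:93642384-93681339, plus strand) is expressed in frontonasal mesenchyme and in the anterior limb bud. It was at 185.4 and 163.6 CPM in wt, and at 126.7, 122.8 and 132.9 CPM in Rspo2KO. In Wnt9bKO it was at 218.9, 154.5 and 162.0 CPM, and in DKO at 161.9, 172.8 and 130.1 CPM. Every Rspo2KO library was below every wt and Wnt9bKO library, while DKO 3 lay within the range of Rspo2KO. *Alx4* was higher in Wnt9bKO than in Rspo2KO by 0.49 on the log2 scale (SE 0.14, 1.40-fold, adjusted p = 0.0170). This call held in 20 of 22 alternatives and was lost without Wnt9bKO 1 (0.31, adjusted p = 0.0643) and without Rspo2KO 2 (0.47, adjusted p = 0.0605). The change in Rspo2KO against wt was -0.45 (SE 0.15, unadjusted p = 0.00904) and did not pass adjustment (adjusted p = 0.273). The difference between DKO and Rspo2KO was 0.28 (SE 0.14, adjusted p = 0.172), and it passed the threshold without the 2 doubtful libraries (0.40, adjusted p = 0.0487). Changes against wt were 0.03 in Wnt9bKO (95% interval -0.29 to 0.36) and -0.17 in DKO (-0.49 to 0.15), and DKO differed from Wnt9bKO by -0.20 (-0.49 to 0.08). Summed markers of crest mesenchyme were likewise lower in every Rspo2KO library (616 to 682 CPM) than in wt (847 and 902 CPM). Of these 6 genes 0 were called by edgeR between the 2 genotypes (0.0346% of all genes), and 2 had an unadjusted p below 0.05 (11.9% of all genes). The part of these markers in the level of *Alx4* was not tested.

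*Alx1* (ENSMUSG00000036602, chr10:102998707-103030215, minus strand) acts in frontonasal and periocular crest mesenchyme. Its levels were 48.6 and 58.6 CPM in wt, 58.3, 57.7 and 58.6 CPM in Rspo2KO, 68.3, 42.1 and 57.9 CPM in Wnt9bKO and 57.5, 46.2 and 51.2 CPM in DKO. The genotypes overlapped except that all DKO libraries were below all Rspo2KO libraries. The changes against wt were 0.07 in Wnt9bKO, 0.12 in Rspo2KO and -0.06 in DKO, with 95% intervals of -0.29 to 0.42, -0.24 to 0.47 and -0.41 to 0.30. A lincRNA on the same strand, Gm17028, shares 243 bases of exon with *Alx1*.

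*Pax9* (ENSMUSG00000001497, chr12:56691767-56712822, plus strand) was at 8.83 and 11.9 CPM in wt and at 17.7, 15.8 and 14.2 CPM in Rspo2KO. It was at 24.8, 10.1 and 13.8 CPM in Wnt9bKO and at 17.7, 12.9 and 11.2 CPM in DKO. All 3 Rspo2KO libraries were above wt, while Wnt9bKO and DKO overlapped wt. The change was 0.64 in Wnt9bKO (SE 0.31, adjusted p = 0.125), 0.61 in Rspo2KO (SE 0.31, adjusted p = 0.457) and 0.41 in DKO (SE 0.31, adjusted p = 0.346). The first value rested on library Wnt9bKO 1, since it was 0.19 without it and 0.91 without Wnt9bKO 2 (adjusted p = 0.0210). Without both doubtful libraries it was 0.88 (adjusted p = 0.0209). *Pax9* shares 189 bases of exon with *Slc25a21* on the other strand.

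*Pax7* (ENSMUSG00000028736, chr4:139737062-139833528, minus strand) marks crest of the nasal region and muscle progenitors. It was at 14.1 and 15.2 CPM in wt, 18.4, 19.95 and 17.5 CPM in Wnt9bKO and 17.4, 18.7 and 20.2 CPM in DKO. Both mutants were above wt in every library. In Rspo2KO the library Rspo2KO 1 had 23.3 CPM, the highest of all 11, while the others had 12.3 and 12.8 CPM. The change against wt was 0.34 in Wnt9bKO (SE 0.22, adjusted p = 0.251), 0.36 in DKO (SE 0.22, adjusted p = 0.254) and 0.13 in Rspo2KO (SE 0.22, adjusted p = 0.858). Only 1 of the 22 alternatives called the first value or the second, that without Rspo2KO 1, a library in neither comparison. There the first value was again 0.34 with an adjusted p of 0.0429 and the second again 0.36 with an adjusted p of 0.0427. Against Rspo2KO, *Pax7* was likewise called in this 1 alternative only, with 0.57 in Wnt9bKO (adjusted p = 0.00385) and 0.58 in DKO (adjusted p = 0.00468). With all libraries these differences were 0.22 (adjusted p = 0.447) and 0.23 (adjusted p = 0.464).

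*Pax3* (ENSMUSG00000004872, chr1:78101267-78197134, minus strand), a factor of dorsal neural tube and early crest, varied most between the wt libraries, at 14.7 and 25.1 CPM. It was at 27.1, 21.4 and 19.4 CPM in Rspo2KO, 29.2, 19.2 and 20.3 CPM in Wnt9bKO and 17.7, 18.6 and 26.5 CPM in DKO. All genotypes overlapped. Changes against wt were 0.19, 0.17 and 0.06 in Wnt9bKO, Rspo2KO and DKO, with SEs of 0.25, and the first had a 95% interval of -0.34 to 0.71.

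*Six2* (ENSMUSG00000024134, chr17:85684277-85688274, minus strand) was at 37.2 and 38.9 CPM in wt and at 44.8, 40.3 and 32.6 CPM in Rspo2KO. It was at 58.3, 41.3 and 38.2 CPM in Wnt9bKO and at 58.4, 38.2 and 31.5 CPM in DKO. A single library, replicate 1, was far above the rest in each of Wnt9bKO and DKO, and all genotypes overlapped. Changes against wt were 0.27 in Wnt9bKO (SE 0.23, 95% interval -0.22 to 0.77), 0.04 in Rspo2KO (SE 0.23) and 0.17 in DKO (SE 0.23). In all 3 mutants replicate 1 had the highest *Six2* level and replicate 3 the lowest, and the numbers are not stated to mark a shared litter or day. With an offset for GC content and length and the replicate number as a block, *Six2* was called in Wnt9bKO against wt (0.53, adjusted p = 0.0103). That setting was also the 1 of 22 that called it between Wnt9bKO and Rspo2KO. The differences of *Alx1*, *Pax3*, *Pax9* and *Six2* between pairs of mutants, and those of *Pax7* and *Tfap2a* between DKO and Wnt9bKO, lay between -0.23 and 0.23 and were not called.

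Counted by libraries that do not overlap, 3 of the 9 genes separated Wnt9bKO from wt and DKO from wt, with *Pax7*, *Tfap2a* and *Tfap2b* higher in both, where 56.3% and 58.1% of all genes separated these groups. Likewise 3 separated Rspo2KO from wt (32.9% of all genes), with *Alx4* and *Tfap2c* lower and *Pax9* higher. Between Wnt9bKO and Rspo2KO the 3 were *Alx4*, *Tfap2b* and *Tfap2c* (37.6% of all genes), between DKO and Rspo2KO *Alx1*, *Tfap2b* and *Tfap2c* (36.5%), and between DKO and Wnt9bKO there were 0 (11.2%). The study used DESeq2 with a p below 0.05 and more than 1.5-fold, and does not state whether p was adjusted. Its cut, called the rule of the study here, was applied to edgeR's unadjusted p. In each mutant more genes passed it against wt than the study reported, though by another test and with fewer wt libraries. The study names 3 samples per genotype, while 2 wt libraries were used here. Under it *Tfap2a* and *Tfap2b* were higher in Wnt9bKO than in wt (24.8% of all genes passed), *Tfap2b* in DKO (20.4%), and *Tfap2c* was lower in Rspo2KO (4.68%). *Tfap2c* also passed this rule between DKO and Rspo2KO (12.2% of all genes) and between Wnt9bKO and Rspo2KO (16.9%), while 0 of the 9 passed between DKO and Wnt9bKO (2.93%).

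Whether the loss of *Rspo2* acted differently with and without the *Wnt9b* mutation was tested as an interaction, the change from Wnt9bKO to DKO less the change from wt to Rspo2KO. *Xist* was high in all wt and DKO libraries and low in all Wnt9bKO and Rspo2KO libraries. The interaction sets these same groups against each other, so it cannot be told apart from sex. Of the 9 genes 0 were called by edgeR (0.0635% of all genes) and 0 by DESeq2 (0.221%), while 1 had an unadjusted p below 0.05 (9.45% of all genes). It passed 1.5-fold as well, as did 5.85% of all genes. This was *Tfap2c*, with an interaction of 0.81 (SE 0.30, unadjusted p = 0.0159, adjusted p = 0.435). It was 0.45 without the 2 doubtful libraries. The value was -0.20 for *Tfap2b* (95% interval -0.55 to 0.16) and 0.25 for *Alx4* (-0.19 to 0.68). Over the other 6 genes it ran from -0.83 for *Pax9* (-1.70 to 0.03) to -0.12 for *Pax7* (-0.75 to 0.51).

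The libraries of a genotype also differed from each other over the 9 genes. Wnt9bKO 1 had the highest level of all libraries for 4 of the 9, *Alx1*, *Alx4*, *Pax3* and *Pax9*, and was above its genotype mean for 7 of 9. Rspo2KO 1 was above its genotype mean for 8 of 9, and Wnt9bKO 2 for 2 of 9. The largest deviation was that of *Pax9* in Wnt9bKO 1, 0.72 above the mean of its genotype on the log2 CPM scale, while *Pax9* in Wnt9bKO 2 was at -0.58. Crest mesenchyme markers summed to 1064 CPM in Wnt9bKO 1 and to 519 CPM in Wnt9bKO 2, and eye markers to 120.2 CPM in Wnt9bKO 2 against 57.3 to 86.6 CPM elsewhere. Their part in these deviations was not tested.

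**Figure D4:**
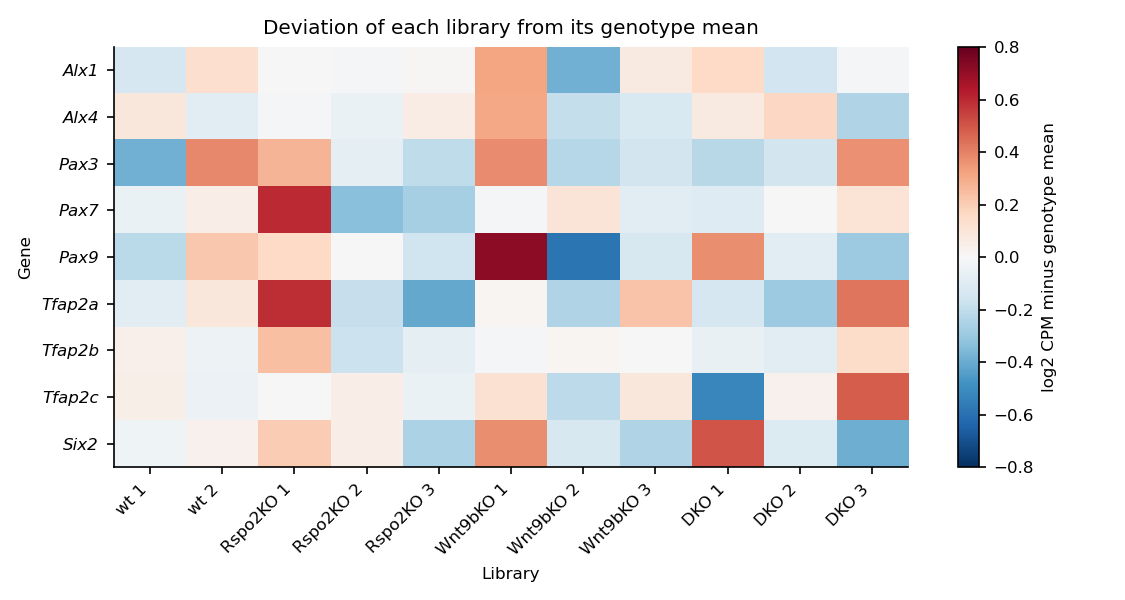
Deviation of each factor (rows) in each library (columns) from the mean of its genotype, in log2 CPM, with colors for the sign and size. Wnt9bKO 1 is above its genotype mean for 7 of 9 factors and Wnt9bKO 2 for 2 of 9, and the largest value is *Pax9* in Wnt9bKO 1 at 0.72.

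Over all 11 libraries, the closest pairs among the 9 genes were *Pax7* with *Tfap2a* (Pearson r = 0.80), *Alx1* with *Pax9* (r = 0.80) and *Tfap2a* with *Tfap2b* (r = 0.80). These libraries share the genotype labels and the split in small nuclear RNAs, so the values describe the libraries and carry no test. By the same measure, the protein-coding gene most like *Tfap2b* was *Akap9* (r = 0.99), and that most like *Tfap2c* was *Fzd6* (r = 0.92), a WNT receptor. *Alx4* was closest to *Srebf1* (r = 0.96), *Alx1* to *Tmem26* (r = 0.96), *Pax7* to *Sh2b3* (r = 0.94), *Pax9* to *Jph4* (r = 0.91), *Tfap2a* to *Zfp395* (r = 0.96), *Six2* to *Znrf1* (r = 0.90) and *Pax3* to *Tmem81* (r = 0.84). The next in order were *Dcun1d4* for *Tfap2b*, *Rpl3* for *Tfap2c*, *Tbc1d10b* for *Alx4*, *Mpped2* for *Alx1*, *Nectin1* for *Pax7*, *Rap1gap2* for *Pax9*, *Nckap5l* for *Tfap2a*, *Derl3* for *Six2* and *Sema4f* for *Pax3*, with r between 0.83 and 0.99.

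Of 14 paralogs of the 9 genes, 11 passed the filter, and *Pax4*, *Tfap2d* and *Tfap2e* had at most 5 counts in a library. In Rspo2KO against wt 0 of the 11 were called by edgeR (0.0346% of all genes), and 2 had an unadjusted p below 0.05 (11.9% of all genes). Against wt, 1 of the 11 was called in Wnt9bKO (32.8% of all genes) and 1 in DKO (27.5% of all genes). In both it was *Six3*, a factor of forebrain and eye, at 5.55 and 7.67 CPM in wt. *Six3* rose by 1.11 in Wnt9bKO (SE 0.27, adjusted p = 0.00635), where it was at 11.7 to 17.5 CPM, and by 0.85 in DKO (SE 0.27, adjusted p = 0.0315), where it was at 8.91 to 13.3 CPM. Of forebrain and neural tube markers 6 of 11 were also higher and 2 lower in Wnt9bKO, and 6 higher and 0 lower in DKO, with summed levels of 492 to 586 CPM and 565 to 672 CPM beside 536 and 550 CPM in wt. *Six5* was higher in Wnt9bKO than in Rspo2KO by 0.39 (SE 0.13, adjusted p = 0.0417). *Six4* had means of 76.8 to 89.8 CPM over the genotypes, *Pax6* of 39.1 to 46.9 CPM and *Six6* of 12.7 to 15.6 CPM, and none of them was called in any comparison. *Pax1*, *Pax2*, *Pax5* and *Pax8* were low in all genotypes, with means of 0.299 to 2.28 CPM, and were not called either.

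Of 15 partners and cofactors of these families, 3 were higher and 1 lower in Wnt9bKO than in wt. *Eya1*, a coactivator that binds SIX2 and its relatives, rose by 0.50 (SE 0.11, adjusted p = 0.00376), *Tle3*, a Groucho corepressor, by 0.41 (adjusted p = 0.0318) and *Eya3* by 0.30 (adjusted p = 0.0368). *Kctd15*, which encodes an inhibitor of AP-2α, fell by 0.31 (SE 0.11, adjusted p = 0.0415). In DKO, *Eya1* rose by 0.43 (adjusted p = 0.0104) and *Kctd15* fell by 0.33 (adjusted p = 0.0349). In Rspo2KO 0 of 15 were called against wt by edgeR (0.0346% of all genes), and 1 had an unadjusted p below 0.05 (11.9% of all genes). The shares of partners called, 4 and 2 of 15, stand beside 32.8% and 27.5% of all genes.

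Among 11 other genes of maxillary and frontonasal mesenchyme, 2 were higher in Wnt9bKO than in wt, where 32.8% of all genes were called. These were the nuclear receptor genes *Nr2f2* (1.05, SE 0.21, adjusted p = 0.00169) and *Nr2f1* (0.28, SE 0.10, adjusted p = 0.0454). In DKO, 3 were higher, with *Nr2f2* at 1.09 (adjusted p = 0.00180), *Pou3f3* at 0.47 (adjusted p = 0.00944) and *Nr2f1* at 0.37 (adjusted p = 0.0145), and *Lhx8* fell by 0.90 (adjusted p = 0.0297), beside 27.5% of all genes called. Against Rspo2KO, 3 of the 11 were higher in Wnt9bKO, *Nr2f2* (0.69, adjusted p = 0.0117), *Pou3f3* (0.35, adjusted p = 0.0254) and *Nr2f1* (0.26, adjusted p = 0.0429), beside 26.0% of all genes called. The same 3 genes were higher in DKO than in Rspo2KO, by 0.35 to 0.73, beside 18.2% of all genes called. Of 6 mandibular arch genes, *Dlx5* rose in Wnt9bKO against wt by 1.14 (SE 0.36, adjusted p = 0.0269). Against Rspo2KO, *Hand2* (1.18, adjusted p = 0.00231), *Dlx5* (1.17, adjusted p = 0.0142) and *Hand1* (1.18, adjusted p = 0.0386) were higher in Wnt9bKO, which is 3 of 6 beside 26.0% of all genes.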

How the data were processed

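Bulk RNA of mouse facial processes was sequenced for 4 genotypes. By the methods of the study, the authors used Cutadapt for trimming of single-end reads, STAR for mapping to GRCm38 and HTSeq-Count for counting. The authors deposited counts of reads per Ensembl gene for each library, without normalization. Tool versions, and whether strand was used in counting, are not given in the sources used here. Genotype and replicate number came from the labels, which do not state that embryos were littermates. The numbers were not treated as pairs. No 2 libraries of a genotype differed by as little as sampling noise, since chi-square per degree of freedom was at least 5.50.

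The 9 genes were matched by symbol to GENCODE vM21 (GRCm38), which holds 36723 of the 38561 identifiers in the files. Promoter sequences came from RefSeq (GRCm38.p6), which gave 6 promoters for 5 of the 9 genes. Counts were filtered with filterByExpr (17317 genes kept), scaled with TMM and tested in edgeR 4.0.16 (R 4.3.3) with the quasi-likelihood test, two-sided, in a model with a mean per genotype over all 11 libraries. Benjamini-Hochberg adjustment was made over all genes tested, and a gene was called at an adjusted p below 0.05. The methods of the study name DESeq2 with genes past 1.5-fold at a p below 0.05. DESeq2 at an adjusted p below 0.05, and the study's cut on edgeR's unadjusted p, were used as separate alternatives. Total counts ranged from 11136166 to 18017344, so 3 counts were worth 0.160 to 0.268 CPM.

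Every member is described in every comparison, those not called between mutants by their range. Paralogs are also named, apart from some that are not reported here, as are up to 5 partners and up to 3 regional genes per comparison with the smallest p among those called, and for each member the 2 protein-coding genes with the most similar pattern. Members and lists were chosen with earlier results of these data known. The alternatives were DESeq2 1.42.0, RLE and upper-quartile factors, no filter, at least 10 counts in every library, autosomal protein-coding genes, a replicate block, an offset for GC content and length from a loess fit (span 0.3) with and without that block, only the groups compared, and leaving out each library, or both libraries whose *Rspo2* counts went against their label. The model was tested on simulated data. Python 3.11.15 with pandas 2.3.3 and matplotlib 3.10.9 was used for summaries and plots.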

Additional observations from a re-analysis of the deposited data

Results flagged for a closer look

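The change of *Tfap2c* between genotypes that differ in the *Rspo2* label was set apart because it differed in size with and without the *Wnt9b* mutation at an unadjusted p below 0.05. The change was -0.87 on the log2 scale between Rspo2KO and wt and -0.05 between DKO and Wnt9bKO, and the difference between these changes was 0.81 (SE 0.30, unadjusted p = 0.0159). It did not pass adjustment over all genes (edgeR, adjusted p = 0.435), and it lay between 0.45 and 1.04 over 21 alternatives. Without DKO 3, whose *Rspo2* level went against its label, it was 0.55, and without both doubtful libraries 0.45. By *Xist*, the wt and DKO libraries were all high and those of Wnt9bKO and Rspo2KO all low. The difference between the changes therefore cannot be told apart from sex. Groups of 2 or 3 libraries are too small for a test of single libraries that stand apart.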

How the results depend on the processing

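All 4 calls of *Tfap2b* and the call of *Tfap2c* between Wnt9bKO and Rspo2KO held in every alternative. Of 943 values of single genes under the alternatives, 29 changed sign, and 0 of those were called. The number of the 9 genes called between Wnt9bKO and wt, 1 as reported, was 2 under the rule of the study, with DESeq2, with the GC and length offset with the replicate block and with only the groups compared, and 3 without the filter and without both doubtful libraries. Between Rspo2KO and wt it was 1 under the rule of the study and with DESeq2 and 2 without the filter, where edgeR called 6 genes of all tested, DESeq2 177 and edgeR without the filter 572 (2.04%). Under the rule of the study it was 1 between DKO and Rspo2KO, 1 between Wnt9bKO and Rspo2KO and 1 for the interaction. Leaving out each library in turn gave 1 to 3 between Wnt9bKO and wt, 1 to 2 between DKO and wt, 1 to 3 between DKO and Rspo2KO and 2 to 5 between Wnt9bKO and Rspo2KO. The cause was not tested. Deviations from the group means had a median correlation of 0.0659 (-0.11 to 0.24) over the 15 pairs of libraries with the same number and of -0.0236 over the 30 other pairs, and 8 of 11 libraries correlated best with a library of the same number. Since not every such pair was above 0.1 and no label gives a shared litter or day, the numbers were not taken as pairs. The replicate block gave 1, 0 and 1 of the 9 genes for Wnt9bKO, Rspo2KO and DKO against wt, 0 between DKO and Wnt9bKO, 2 and 3 against Rspo2KO for DKO and Wnt9bKO, and 0 for the interaction.

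Sign changes against wt with the GC and length offset were to -0.0682 for *Alx1* and -0.0147 for *Alx4* in Wnt9bKO and to -0.0934 for *Pax3* in DKO, and with the block added they were -0.10 for *Alx1* and -0.12 for *Pax3*. Without both doubtful libraries, *Tfap2c* in Wnt9bKO was 0.0199 and *Pax3* in DKO -0.15. Leaving out each library in turn, values in Wnt9bKO ran from -0.10 to 0.26 for *Alx1*, -0.14 to 0.15 for *Alx4*, -0.14 to 0.63 for *Pax3* and -0.13 to 0.0493 for *Tfap2c*. In Rspo2KO they ran from -0.0029 to 0.26 for *Alx1*, -0.14 to 0.61 for *Pax3*, -0.23 to 0.31 for *Pax7*, -0.13 to 0.41 for *Tfap2a* and -0.0624 to 0.16 for *Six2*. In DKO they ran from -0.19 to 0.0868 for *Alx1*, -0.27 to 0.50 for *Pax3*, -0.40 to 0.0946 for *Tfap2c* and -0.13 to 0.34 for *Six2*. Between DKO and Wnt9bKO they ran from -0.0935 to 0.0252 for *Tfap2b* and -0.33 to 0.17 for *Tfap2c*. With 2 or 3 libraries per genotype the 95% interval for *Pax9* in Wnt9bKO ran from -0.02 to 1.29, so the size of such a change is loosely fixed.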
